A study of Mus musculus with 16 samples.

Results

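The 10 genes described here are the Erk feedback inhibitors Dusp1, Dusp4, Dusp5, Dusp6, Spry1, Spry2, Spry4, Spred1 and Spred2, together with Mapk3, which encodes the kinase Erk1 that they restrain and is not an inhibitor itself. They were taken by symbol from a count table of 23337 mouse genes, and all 10 were present and passed the filter on low counts. RNA came from the glial lamina, the unmyelinated part of the optic nerve just behind the eye, where astrocytes ensheath the axons of the retinal ganglion cells. The mice were C57BL/6 wild type, and the 4 groups were microbead-injected mice, saline-injected mice, aged naïve mice and young naïve mice. Microbeads clog the drainage of the eye, and the intraocular pressure goes up. Microbead and saline mice were 13 weeks old and were examined 4 weeks after the right eye had been injected in its anterior chamber, young naïve mice were also 13 weeks old, and aged naïve mice were 40 weeks old. Each group had 4 libraries, and each library pooled the right nerve heads of 4 mice, 2 male and 2 female, so that differences between single mice cannot be seen. The questions were how raised pressure changed expression in young nerves and how age changed it in untreated ones.

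Erk kinases stand at the end of the cascade that runs from growth factor receptors through Ras, Raf and Mek. Active Erk induces the transcription of its own inhibitors, and these act at several steps. Dual-specificity phosphatases (Dusp) remove the activating phosphates from MAP kinases, Sprouty proteins (Spry) hold back the signal between receptors and Raf, and Spred proteins bind neurofibromin, a Ras GTPase activator, and bring it to the membrane. In astrocytes, Erk signaling takes part in the reactive response to injury. RNA levels of feedback genes are often read as a trace of Erk activity, but neither phosphorylated Erk nor any protein was measured in these libraries.

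Because the induction of these genes is transcriptional, the start regions of 4 members with unlike patterns are shown. Of these, Dusp5 was called in no comparison of the main set. RefSeq promoter windows of GRCm38.p6, 250 bases before and 50 bases after the start, were found for 7 of the 10 members. The windows were searched on both strands for the cyclic AMP response element TGACGTCA, the AP-1 site TGANTCA, the Ets site CCGGAA and the CArG box of serum response factor, and matches stand in capitals. The sequences read from 5′ to 3′ on the strand of the gene. The window of Dusp1 lies on the minus strand at chr17:26508423-26508722, that of Dusp5 on the plus strand at chr19:53528895-53529194, that of Dusp6 on the plus strand at chr10:99262981-99263280 and that of Spry2 on the minus strand at chr14:105896770-105897069.
Dusp1: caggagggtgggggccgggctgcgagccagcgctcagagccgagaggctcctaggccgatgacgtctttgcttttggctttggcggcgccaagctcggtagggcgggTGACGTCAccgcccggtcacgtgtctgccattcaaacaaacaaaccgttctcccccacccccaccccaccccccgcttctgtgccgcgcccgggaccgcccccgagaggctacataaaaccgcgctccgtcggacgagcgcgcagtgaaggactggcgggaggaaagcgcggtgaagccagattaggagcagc
Dusp5: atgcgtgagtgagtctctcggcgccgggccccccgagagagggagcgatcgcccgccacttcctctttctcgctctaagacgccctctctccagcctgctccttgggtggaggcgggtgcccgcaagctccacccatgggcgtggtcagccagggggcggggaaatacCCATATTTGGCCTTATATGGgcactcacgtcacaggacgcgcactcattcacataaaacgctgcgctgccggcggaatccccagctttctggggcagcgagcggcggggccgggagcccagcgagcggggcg
Dusp6: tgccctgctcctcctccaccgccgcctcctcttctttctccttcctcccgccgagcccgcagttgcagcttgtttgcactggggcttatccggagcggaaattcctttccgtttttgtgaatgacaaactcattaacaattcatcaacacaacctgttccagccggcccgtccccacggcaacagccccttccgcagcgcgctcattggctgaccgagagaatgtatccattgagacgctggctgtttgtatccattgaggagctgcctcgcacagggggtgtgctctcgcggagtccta
Spry2: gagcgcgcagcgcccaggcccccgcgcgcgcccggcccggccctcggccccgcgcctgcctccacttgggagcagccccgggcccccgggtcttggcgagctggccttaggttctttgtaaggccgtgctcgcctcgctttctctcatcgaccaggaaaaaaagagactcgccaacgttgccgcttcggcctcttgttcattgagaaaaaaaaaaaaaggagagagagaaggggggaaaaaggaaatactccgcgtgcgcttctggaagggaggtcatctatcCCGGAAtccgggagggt

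The Dusp1 window held 1 cyclic AMP response element, 143 bases before the start, a motif present in 1.79% of the 32851 promoters in the table. The Dusp5 window held 2 adjoining CArG boxes, 82 and 72 bases before the start, a motif present in 1.63% of promoters. Distances are from the RefSeq start, which can differ from that of the counted gene. The Dusp5 window ends at 53529194, before the counted gene begins at 53529318. That of Spred1 ends at 117121120, also before the counted gene. Spry2 held an Ets match 33 bases after the start, as 14.9% of promoters did, and neither the Dusp6 window nor those of Spry1, Spred1 and Spred2 held a match to any of the 4 motifs. The AP-1 site, present in 7.81% of all promoters, matched in none of the 7. These matches describe letters in the windows and were not tested for binding. Of the members with no window printed, Spry1 lies on chromosome 3 of mm10 from 37639950 to 37644599, Spred1 on chromosome 2 from 117121450 to 117179336 and Spred2 on chromosome 11 from 19924442 to 20022597, all on the plus strand. Dusp4 lies on chromosome 8 from 34807610 to 34819894 and Mapk3 on chromosome 7 from 126759626 to 126765816, also on the plus strand, and Spry4 lies on chromosome 18. Counts were summed over the exons of each gene, 1155 bases for Dusp5 to 4590 bases for Spry4.

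Library totals lay between 6213789 and 10726122 counts, and 14541 genes had sufficient counts for testing. Gfap, the intermediate filament of astrocytes, was at 2435 to 9832 CPM, so the main astrocyte marker was present in each of the 16 libraries. CPM are the counts of a gene per 1000000 counts of its library, with the library size adjusted by TMM normalization. Saline library 4 and aged library 2 stood apart from their groups. Counts assigned to Lars2, the gene of the mitochondrial leucyl-tRNA synthetase, came to 5555 CPM in saline library 4, against 90.4 to 131 CPM in the other saline libraries. In aged library 2 they came to 677 CPM, against 8559 to 9305 CPM in the other aged libraries. Whether these counts came from synthetase RNA was not tested. By the paper's summary of the RNA, the other saline libraries came from the lowest RNA concentrations of all 16. Saline library 4 lay in the range of the microbead libraries, and the aged libraries had the highest concentrations. The part of RNA amount in the member differences was not tested. The authors' comparison tables hold the other 14 libraries, so these 14 are the main set here, and the calls made with all 16 are given beside them. The paper left out a saline and an aged library as outliers of a principal component analysis of expression. Such a choice narrows the spread within groups, so SEs and adjusted p-values with 14 libraries are favourable. For Spry2 in microbead over saline nerves the SE was 0.16 with 14 libraries and 0.26 with 16. Differences come from a joint edgeR quasi-likelihood model of the 4 groups and are given as log2 fold changes with a standard error (SE) derived from the test. A gene was called when the fold change was at least 1.5, p under 0.01 and the Benjamini-Hochberg adjusted p over all tested genes under 0.05.

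Per kilobase of exon, the members spanned nearly 2 orders of magnitude. In young naïve nerves Dusp1 was the highest at 347 ± 91.3 CPM per kb (SD, n = 4), followed by Mapk3 at 88.9 ± 3.79, Spry1 at 63.4 ± 8.61, Dusp6 at 26.8 ± 1.74, Spred1 at 20.6 ± 2.91 and Spred2 at 7.62 ± 1.6 CPM per kb. Dusp5, Spry4, Spry2 and Dusp4 lay lowest, between 4.02 and 5.27 CPM per kb on average, and from Spred2 downward the SDs of neighbours in this order overlapped. In microbead nerves Spred1 (28.1 ± 4.69 CPM per kb, n = 4) stood just above Dusp6 (24.2 ± 2.65 CPM per kb), whose SDs overlapped, and in aged nerves Dusp6 (47.1 ± 6.57 CPM per kb, n = 3) stood above Spred1 (36.7 ± 11.4 CPM per kb). Dusp1 remained the highest and Mapk3 the second in each of the 4 groups.

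**Figure D1:**
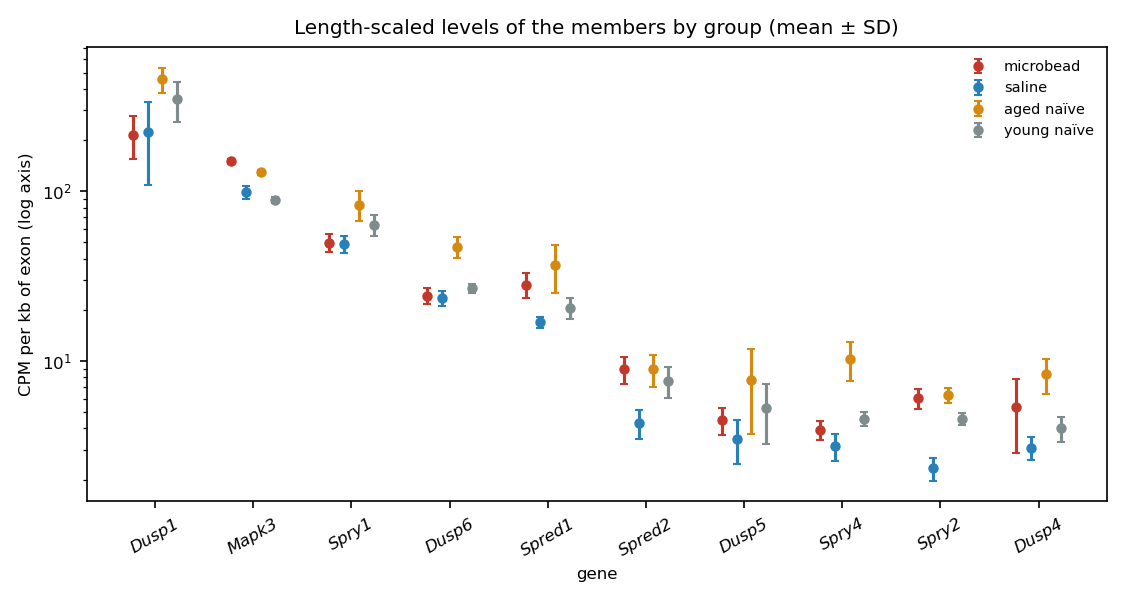
Mean CPM per kb of exon (log axis) of each member in microbead, saline, aged naïve and young naïve nerves, with SD over the 14 libraries of the main set (4, 3, 3 and 4). Dusp1 led in every group, and Dusp5, Spry4, Spry2 and Dusp4 lay lowest in young naïve nerves, at 4.02 to 5.27 CPM per kb.

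The nuclear, immediate early phosphatase Dusp1, which acts on p38, Jnk and Erk, was the most abundant inhibitor and varied widely within groups. It was at 319, 323, 468 and 562 CPM in microbead libraries 1 to 4 and at 302, 310, 689 and 513 CPM in saline libraries 1 to 4. Aged naïve libraries 1 to 4 held 891, 1166, 737 and 1036 CPM, and young naïve libraries held 413, 797, 713 and 771 CPM. Microbead and saline libraries overlapped, and all aged libraries lay above all microbead libraries. Dusp1 was lower in microbead than in aged nerves by the test (log2 fold change −1.09, SE 0.34, adjusted p = 0.0386), but the call was lost when any of 6 of the 7 libraries was left out in turn (log2 −1.20 to −0.96 and adjusted p 0.0532 to 0.139 in those 6) and with no filter on low counts (adjusted p = 0.0583). The change was not called in microbead over saline nerves (log2 −0.05, 95% interval −0.81 to 0.71) or in aged over young nerves (log2 0.40, interval −0.36 to 1.15).

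Dusp6, the cytoplasmic phosphatase with a preference for Erk, rose with age and was close to the same level in microbead and saline nerves. Aged libraries 1 to 4 held 149, 118, 112 and 133 CPM, against 69.6, 76.6, 80.8 and 72.6 CPM in young naïve libraries. Microbead libraries held 64.8, 78.8, 64 and 63.2 CPM, and saline libraries held 57.6, 69.9, 68.7 and 74.1 CPM. All 4 aged libraries, library 2 included, lay above all 12 others, and the microbead, saline and young libraries overlapped. Dusp6 rose in aged over young nerves (log2 0.81, SE 0.11, adjusted p = 8.92e-06) and was lower in microbead than in aged nerves (log2 −0.96, SE 0.11, adjusted p = 3.03e-05). In microbead over saline nerves the log2 difference was 0.05 with a 95% interval of −0.18 to 0.28. Both calls held with all 16 libraries (log2 0.77 for age) and under every alternative run.

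Dusp4, a nuclear phosphatase induced by Erk, was higher with age and scattered after microbeads. Aged libraries 1 to 4 were at 25.7, 11.7, 16.9 and 18.2 CPM, and young naïve libraries were at 12, 8.7, 8.39 and 9.9 CPM. Microbead libraries were at 8.93, 21.6, 8.77 and 12.6 CPM, and saline libraries were at 8.8, 6.93, 6.72 and 15.6 CPM. Aged library 2 fell within the young range, and the highest microbead value, in library 2, was well above the other 3. Dusp4 rose in aged over young nerves (log2 1.06, SE 0.27, adjusted p = 0.00372), a call lost with all 16 libraries (log2 0.89, adjusted p = 0.0365) and without aged library 1 (log2 0.85, adjusted p = 0.0262), where p was not under 0.01. In microbead over saline nerves it differed by 0.80 (SE 0.28, adjusted p = 0.0387), which missed the p threshold and passed it with DESeq2 and without microbead library 1 or 3.

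Dusp5, the nuclear phosphatase specific for Erk, was called in no comparison of the main set. It was the member with the fewest reads, 25 to 102 counts per library. Microbead libraries ran at 4.2 to 6.35 CPM, saline libraries at 3.22 to 6.51 CPM, aged libraries at 5.11 to 14.2 CPM and young naïve libraries at 2.8 to 8.39 CPM, so that all groups overlapped. The log2 difference of aged over young nerves was 0.54 with a 95% interval of −0.18 to 1.27, and that of microbead over saline nerves was 0.38 with an interval of −0.40 to 1.16. An increase of 2-fold lies within both intervals. With all 16 libraries the log2 differences were 0.67 for age and 0.17 for microbeads over saline, again not called. In microbead over aged nerves Dusp5 differed by −0.77 with a 95% interval of −1.51 to −0.04 (adjusted p = 0.111). That difference was called without aged library 1 (log2 −1.06, adjusted p = 0.0352).

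**Figure D2:**
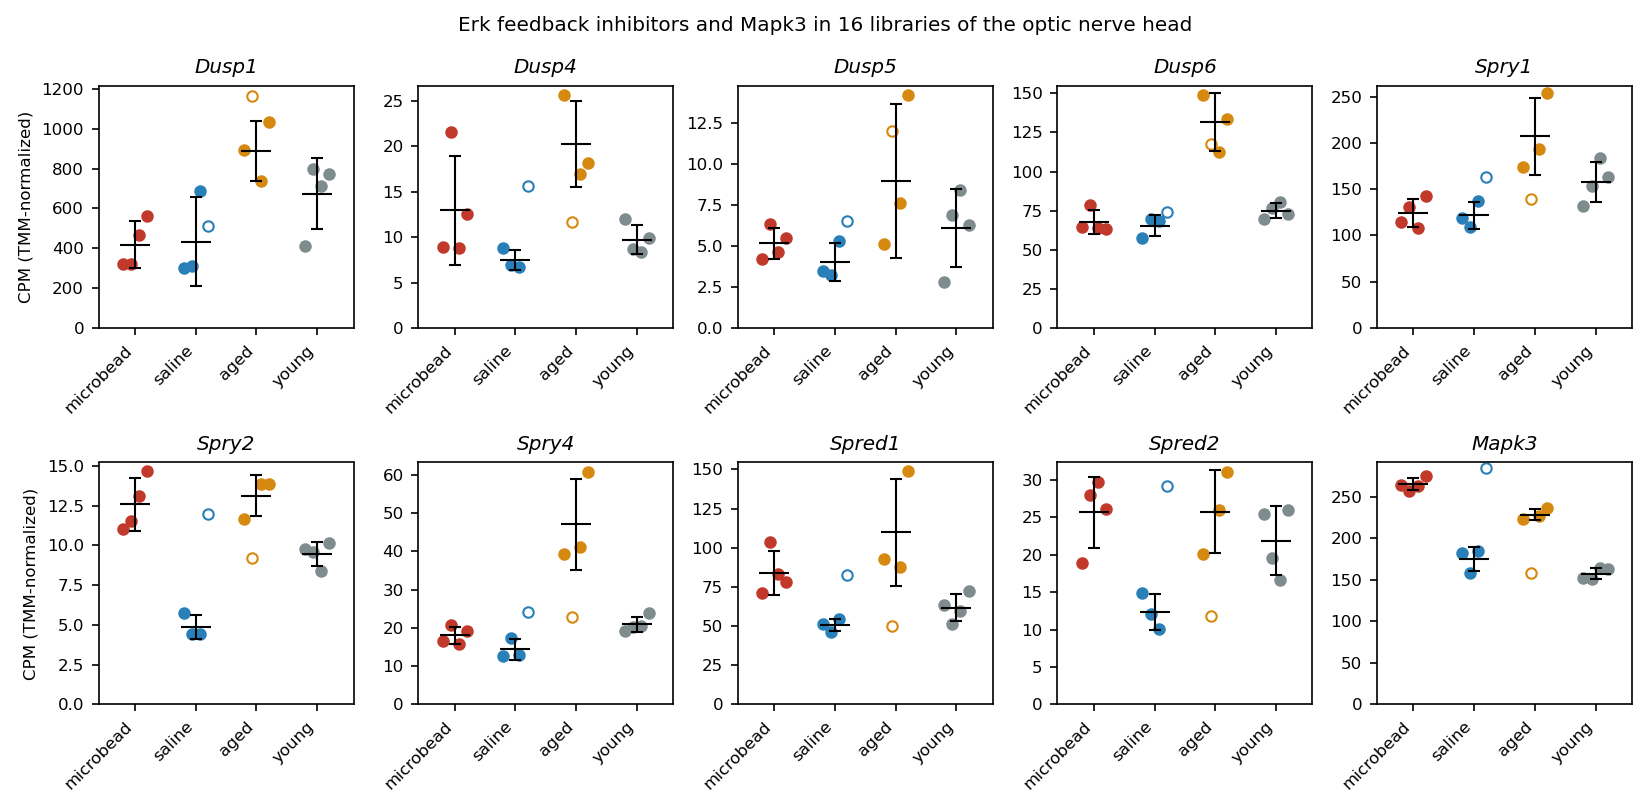
CPM of each member in the 16 libraries by group, with the mean and SD of the 14 libraries of the main set. Open circles are saline library 4 and aged library 2, and each panel has its own axis starting at 0. Dusp6 and Spry4 were highest in aged nerves, and Mapk3 was highest in microbead nerves and in saline library 4.

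The Sprouty genes were not all called in the same comparisons. Spry2, which also binds the ubiquitin ligase Cbl, differed most between microbead and saline nerves. It was at 11, 11.5, 13.1 and 14.7 CPM in microbead libraries 1 to 4 and at 5.74, 4.42, 4.43 and 11.9 CPM in saline libraries 1 to 4. Aged libraries held 11.7, 9.19, 13.9 and 13.9 CPM, and young naïve libraries held 9.75, 9.6, 8.39 and 10.1 CPM. Saline libraries 1 to 3 were the lowest of all 16, and saline library 4 lay in the microbead range. Spry2 rose 2.6-fold in microbead over saline nerves (log2 1.38, SE 0.16, adjusted p = 1.25e-05) in the 14 libraries. Over all 16 libraries the log2 difference was 0.93 with an adjusted p of 0.206. Against young naïve nerves the microbead value was only 1.33-fold (log2 0.41, SE 0.14, adjusted p = 0.0341), under the fold minimum, while saline nerves differed from young naïve nerves by −0.96 (SE 0.17, adjusted p = 0.0573). Most of the distance between microbead and saline nerves therefore lay on the saline side of the young naïve level. In aged over young nerves the log2 difference was 0.47 (SE 0.15, adjusted p = 0.016), also under the fold minimum. Microbead over aged nerves differed in Spry2 by −0.06 with a 95% interval of −0.37 to 0.26.

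Spry4 followed age. Aged libraries 1 to 4 held 39.2, 22.7, 41.1 and 60.7 CPM, against 19.3, 20.1, 20.4 and 23.8 CPM in young naïve libraries. Microbead libraries held 16.6, 20.7, 15.8 and 19.1 CPM, and saline libraries held 12.7, 17.5, 13.1 and 24.1 CPM. Aged libraries 1, 3 and 4 lay above every other library, and aged library 2 lay within the young range. Spry4 rose 2.25-fold in aged over young nerves (log2 1.17, SE 0.16, adjusted p = 9.6e-06) and with all 16 libraries by 0.97 on the log2 scale (adjusted p = 0.00555). It was lower in microbead than in aged nerves (log2 −1.37, SE 0.16, adjusted p = 3.03e-05), and in microbead over saline nerves the log2 difference was 0.32 with a 95% interval of −0.03 to 0.67. Both calls held under every alternative run.

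Spry1 was the most abundant Sprouty gene per kilobase. Microbead libraries were at 115, 130, 108 and 142 CPM, saline libraries at 119, 109, 137 and 163 CPM, aged libraries at 174, 139, 193 and 254 CPM, and young naïve libraries at 132, 153, 183 and 163 CPM. Aged library 2 was the only aged library inside the microbead range. Spry1 was lower in microbead than in aged nerves (log2 −0.74, SE 0.14, adjusted p = 0.00105), which was not called without aged library 4 (log2 −0.56, adjusted p = 0.00881), where the fold fell under 1.5. In aged over young nerves it differed by 0.39 (SE 0.14, adjusted p = 0.024), and in microbead over saline nerves by 0.03 with a 95% interval of −0.26 to 0.32.

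The Spred genes were higher in microbead than in saline nerves. Spred1, whose loss in humans causes the RASopathy Legius syndrome, was at 71.1, 104, 83.1 and 78.4 CPM in microbead libraries 1 to 4 and at 51.1, 46.4, 54.4 and 82.3 CPM in saline libraries 1 to 4. Aged libraries held 92.7, 49.8, 87.9 and 149 CPM, and young naïve libraries held 63.5, 51.6, 59.6 and 72.6 CPM. All microbead libraries lay above saline libraries 1 to 3, and saline library 4 lay in the microbead range, while aged library 2 lay below the young naïve libraries. Spred1 rose 1.66-fold in microbead over saline nerves (log2 0.73, SE 0.18, adjusted p = 0.00552) and 1.77-fold in aged over young nerves (log2 0.83, SE 0.17, adjusted p = 0.00106). In all 16 libraries the log2 differences were 0.52 (adjusted p = 0.258) and 0.62 (adjusted p = 0.0651), neither called. The age call was also lost without aged library 4, at a log2 difference of 0.55 (adjusted p = 0.00503), under the fold minimum.

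Spred2 was at 18.9, 28, 29.6 and 26.1 CPM in microbead libraries and at 14.9, 12.1, 10.1 and 29.1 CPM in saline libraries 1 to 4. Aged libraries held 20.1, 11.8, 26 and 31.1 CPM, and young naïve libraries held 25.4, 19.5, 16.6 and 26 CPM. Saline libraries 1 to 3 were below all microbead and young libraries, and microbead, aged and young libraries overlapped. Spred2 rose 2.08-fold in microbead over saline nerves (log2 1.06, SE 0.20, adjusted p = 0.000823), a call lost with all 16 libraries (log2 0.63, adjusted p = 0.262). Microbead over young naïve nerves differed by 0.24 on the log2 scale with a 95% interval of −0.14 to 0.61, aged over young nerves by 0.23 with an interval of −0.17 to 0.63, and saline over young nerves by −0.82 (SE 0.20, adjusted p = 0.139). As for Spry2, the microbead level was close to the young naïve level and the saline level was below it.

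Mapk3 varied little within groups, apart from the libraries that stood apart. It was at 264, 257, 263 and 275 CPM in microbead libraries 1 to 4 and at 182, 158, 185 and 285 CPM in saline libraries 1 to 4. Aged libraries held 223, 158, 226 and 236 CPM, and young naïve libraries held 153, 151, 164 and 163 CPM. Saline library 4 was the highest library of all, and aged library 2 fell within the young range. Mapk3 rose in microbead over young naïve nerves by 1.68-fold (log2 0.75, SE 0.07, adjusted p = 4.03e-07), with all 16 libraries too (adjusted p = 0.016), and in microbead over saline nerves by 1.52-fold (log2 0.60, SE 0.07, adjusted p = 2.01e-05). The call against saline nerves sat at the fold minimum and was lost with all 16 libraries (log2 0.39, adjusted p = 0.213). The fold was also under 1.5 without saline library 2 (log2 0.53, adjusted p = 0.000244), with the replicate number as a block (log2 0.58, adjusted p = 9.24e-05) and among the main-set libraries whose sample titles carry the code TJb4 (log2 0.58, adjusted p = 0.0141). In aged over young nerves the difference of 0.54 (SE 0.07, adjusted p = 1.3e-05) missed the fold minimum.

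Over all members, microbead over saline nerves gave 4 members called higher (Spry2, Spred2, Spred1 and Mapk3) and none called lower. Among all tested genes 9.39% were called higher and 3.06% lower in that comparison. The median log2 difference was 0.49 for the 10 members and 0.38 for the inhibitors without Mapk3, against −0.01 over all genes. With all 16 libraries edgeR called 0 members, with 3 members at an unadjusted p under 0.05, and it called 0 of all 14417 genes tested (0%), with 2772 genes at an unadjusted p under 0.05. The 6 members not called with 14 libraries had log2 differences between −0.12 (Dusp1) and 0.45 (Dusp4) with 16. Of the main-set libraries that share the code TJb4 in their titles, whose meaning is not stated, microbead libraries 1 and 2 were set against saline libraries 1 to 3. The log2 differences were 1.22 for Spry2, 0.93 for Spred2, 0.80 for Spred1 and 0.58 for Mapk3, the last no longer called. Saline library 4 carries this code too and was left out of these values. Its levels of these 4 members lay in the microbead range or above it.

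Aged over young naïve nerves also gave 4 members called higher (Spry4, Dusp4, Spred1 and Dusp6) and none lower, where 15.1% of all tested genes were called higher and 11.4% lower. All 10 log2 differences were above 0, with a median of 0.54, against 0.02 over all genes. Dusp6 and Spry4 were called with all 16 libraries, and 19.7% of all genes were called in either direction. Within the title code TJb3, aged libraries 1 and 3 against the young naïve libraries gave 1.13 for Dusp4, 0.95 for Spry4, 0.81 for Dusp6 and 0.55 for Spred1, of which Spred1 missed the fold minimum. Aged library 2 carries this code too and was left out of these values. It lay within the young range for Dusp4 and Spry4, below it for Spred1 and above it for Dusp6. Markers of several cell types made up a smaller share of the counts in aged than in young nerves. In such bulk samples fewer cells of a type, less RNA per cell and more RNA from other sources cannot be told apart. The summed level of 10 astrocyte markers was 7985 to 9759 CPM in aged libraries, against 12575 to 15204 CPM in young naïve libraries. The sum of 11 microglia and macrophage markers was 1427 to 1941 CPM in aged libraries, against 2442 to 3095 CPM in young ones, and that of 9 endothelial markers 363 to 570 CPM, against 707 to 782 CPM. None of these markers was at 0 in any library, and their part in the member differences was not tested. Rn45s, a ribosomal RNA precursor, was at 4254 to 4874 CPM in aged libraries 1, 3 and 4 and 3031 CPM in aged library 2, against 766 to 1979 CPM in young naïve libraries, and its part was not tested either.

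Marker levels also differed between microbead and saline nerves. The sum of 11 microglia and macrophage markers was 1918 to 2213 CPM in microbead libraries, against 2620 to 3214 CPM in saline libraries 1 to 3 and 1995 CPM in saline library 4, and 3 of the 11 were called lower, with a median log2 difference of −0.42. The sum of 6 markers of melanocytes and pigment epithelium was 1594 to 2912 CPM in microbead libraries, against 3294 to 3767 CPM in saline libraries 1 to 3 and 2685 CPM in saline library 4, with 3 of 6 called lower and a median of −0.80. For both lists the microbead libraries lay below saline libraries 1 to 3, and saline library 4 lay in the microbead range. Astrocyte sums overlapped, at 13912 to 18249 CPM in microbead libraries and 14974 to 16024 CPM in saline libraries, and 1 of 10 astrocyte markers was called lower. None of these markers was called with all 16 libraries. Sums of 9 markers of retinal neurons and photoreceptors varied widely, from 45 to 1101 CPM in microbead libraries and from 13.3 to 6439 CPM in saline libraries, with none called. At most 1 of these retinal markers and none of the others was at 0 in any library, and the part of these cell types in the member differences was not tested.

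**Figure D3:**
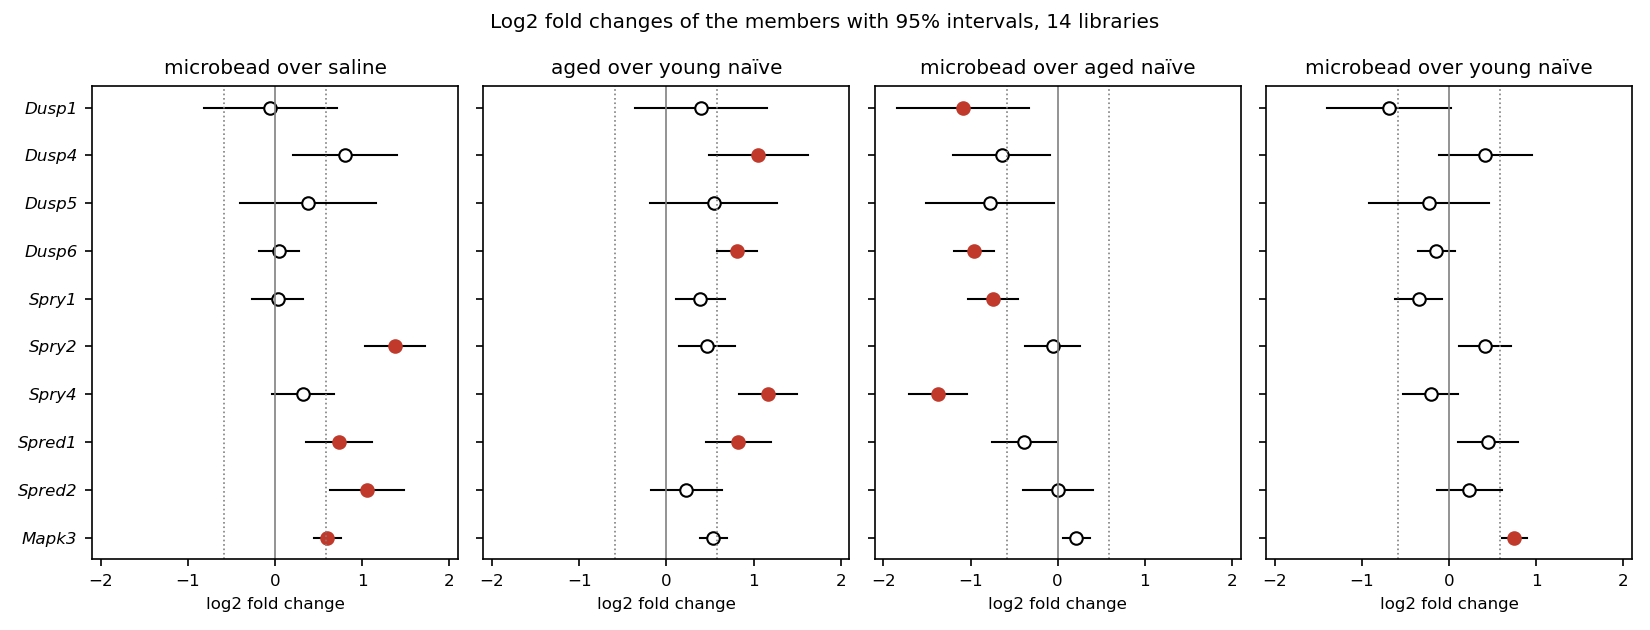
Log2 fold changes of the members with 95% intervals in the 14 libraries, for microbead over saline, aged over young naïve, microbead over aged naïve and microbead over young naïve nerves. Filled points were called and dotted lines mark a 1.5-fold change. Spry2, Spred1, Spred2 and Mapk3 were called for microbeads, and Dusp4, Dusp6, Spry4 and Spred1 for age.

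The microbead response, measured from saline nerves, was set against the age response, measured from young naïve nerves, in the same model. Dusp6 (difference of log2 fold changes −0.76, SE 0.15, adjusted p = 0.0059) and Spry4 (−0.85, SE 0.23, adjusted p = 0.0248) responded less to microbeads than to age, and Spry2 responded more (0.91, SE 0.22, adjusted p = 0.0159). These 3 of 10 members passed an adjusted p under 0.05, as did 10.8% of all tested genes. Spred2 differed by 0.83 (SE 0.28, adjusted p = 0.0659), and for Spred1 the difference was −0.09 with a 95% interval of −0.62 to 0.43. With all 16 libraries only Dusp6 was called among the members (−0.77, adjusted p = 0.0177). The result for Spry4 was also lost without aged library 4 (−0.62, adjusted p = 0.0812) and without saline library 2 (−0.68, adjusted p = 0.0846). Measured from young naïve nerves, Spry2 was at a log2 difference of 0.41 in microbead nerves and 0.47 in aged nerves. Saline nerves were at −0.96 on that scale, not called, so the larger Spry2 response to microbeads holds only against saline nerves. Saline and young naïve libraries share no title code, so code and response cannot be told apart in these differences.

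Directly compared, microbead nerves were below aged nerves in 4 members (Spry4, Dusp1, Dusp6 and Spry1), with none called higher. Of all tested genes 4.78% were called lower and 6.07% higher. The same 4 members were called with all 16 libraries, where 10% of all genes were called in either direction. The median log2 difference was −0.69 for the members and −0.74 for the inhibitors without Mapk3, against 0.00 over all genes. This comparison uses the libraries of the preceding ones and is no independent evidence. Only aged library 4 shares a title code with microbead libraries, which is too few libraries for a value within the code.

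Against young naïve nerves, Mapk3 was the only member called in microbead nerves, where 7.63% of all genes were called higher and 2.15% lower, and 5.03% in either direction with all 16 libraries. Spry2 (log2 0.41) and Spry1 (log2 −0.35, adjusted p = 0.0487) had an adjusted p under 0.05 but missed the fold minimum, and 4 of 10 members had an unadjusted p under 0.05. The inhibitors had a median log2 difference of −0.15, and all 10 members with Mapk3 one of 0.05. No member was called by edgeR at its main settings in saline over young naïve nerves with 14 or 16 libraries. Still, 4 of 10 had an unadjusted p under 0.05 with 14 libraries and 2 with 16 libraries. The shares of all genes called were 0% higher and 0.00688% lower with 14 libraries, and 0% with 16. DESeq2 called Spry2 (log2 −0.98) and Spred2 (log2 −0.84) with 14. With 14 libraries, edgeR called Spry2 with DESeq2 size factors, no filter, a stricter filter or the length trend removed (adjusted p 0.0427 to 0.0493). Those 4 settings called 3 to 7 of all genes. At the main settings the median was −0.53 for the inhibitors and −0.46 for all 10 members, against 0.01 over all genes. All 9 inhibitors had values below 0, none of them called. Saline and young naïve libraries share no title code, and neither do microbead and young naïve libraries, so code and group cannot be told apart there.

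Many members varied together over the 16 libraries. Dusp6 and Spry4 had a Pearson r of 0.86 on log2 CPM, Spry1 and Spry4 of 0.85, and Dusp1 and Dusp5 of 0.78. Spry2 and Spred2 had an r of 0.85 and Spred1 and Spred2 of 0.79. Dusp4 was close to Spred1 (r = 0.76), Spry4 (r = 0.74) and Dusp6 (r = 0.68), and Spry4 to Spred1 (r = 0.72). The lowest r was that of Dusp1 and Mapk3, at −0.20. These values describe 16 libraries that share groups, preparation and the same standing-apart libraries, and no test was made of them.

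**Figure D4:**
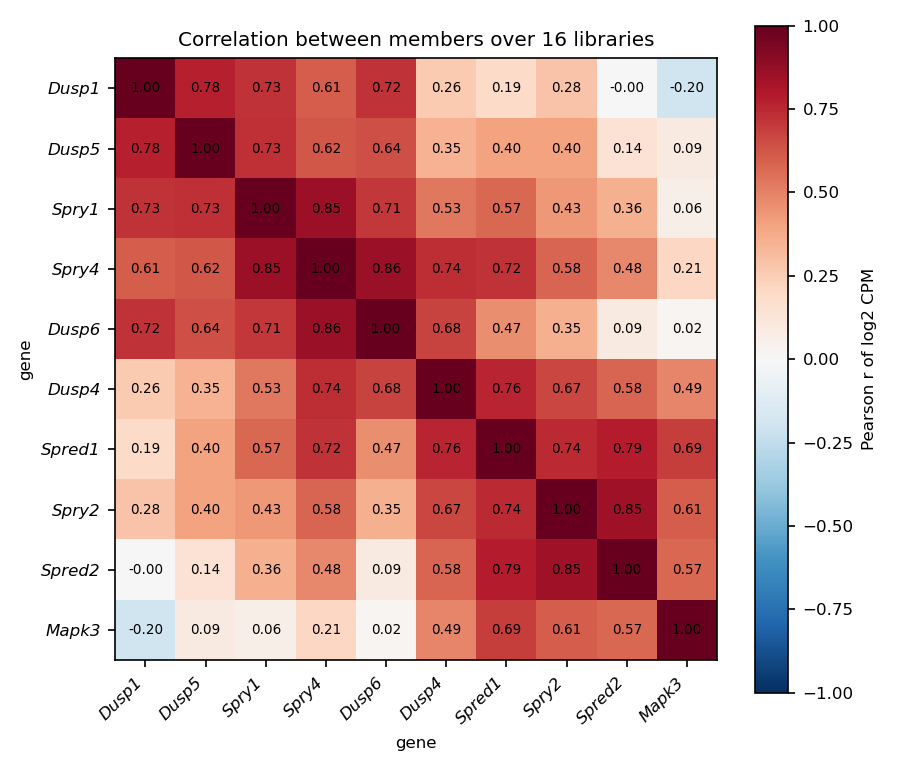
Pearson r of log2 CPM between the members over the 16 libraries, from −1 (blue) to 1 (red). Dusp1, Dusp5, Spry1, Spry4 and Dusp6 had r of 0.61 to 0.86 with each other, and Dusp4, Spred1, Spry2 and Spred2 of 0.58 to 0.85. These sets are not separate, since Spry4 had an r of 0.74 with Dusp4 and 0.72 with Spred1.

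Some members moved closely with Lars2, the gene that marked the libraries standing apart. The r with Lars2 over the 16 libraries was 0.87 for Mapk3, 0.81 for Spry2, 0.81 for Spred1, 0.74 for Dusp4 and 0.65 for Spred2, against 0.57 for Spry4, 0.44 for Dusp6, 0.31 for Dusp5, 0.30 for Spry1 and 0.11 for Dusp1. Lars2 was at 4196 to 6016 CPM in microbead libraries, against 90.4 to 131 CPM in saline libraries 1 to 3, and Rn45s at 2194 to 3427 CPM, against 630 to 1637 CPM. The libraries also differed in how level depended on gene length. Spearman's rho between gene length and the log2 ratio to the young naïve mean was 0.40 to 0.46 in microbead libraries, −0.20 to −0.17 in saline libraries 1 to 3 and 0.47 in saline library 4. It was 0.36 to 0.44 in aged libraries 1, 3 and 4, −0.25 in aged library 2 and −0.38 to 0.26 in young naïve libraries, and the part of Lars2 and Rn45s in the member differences was not tested. With each library's length trend removed, the 4 members stayed called in microbead over saline nerves, and so did the 4 in aged over young nerves. Spry2 (log2 0.59, adjusted p = 0.00488) and Mapk3 (log2 0.74, adjusted p = 3.07e-07) were then called for age too. Over all genes, calls in microbead over saline nerves fell from 1810 to 977 under that setting.

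By the correlation of log2 CPM over the 16 libraries, the gene most like Dusp1 was Btg2 (r = 0.87), an immediate early gene, and that most like Dusp5 was Klf6 (r = 0.91), followed by the nuclear receptor Nr4a1 (r = 0.90). Dusp6 was closest to Sgk1 (r = 0.93), a kinase induced by serum and glucocorticoids, Spry1 to the potassium channel gene Kcnk5 (r = 0.90), and Spry4 to Rnf144a (r = 0.96) and then to Fosl2 (r = 0.92), an AP-1 component. Trib1, a pseudokinase gene, was the third closest of both Spry1 (r = 0.88) and Spry4 (r = 0.91). Dusp4 was closest to Tbc1d1 (r = 0.95), Spry2 to Cenpb (r = 0.95), Spred1 to D15Ertd621e (r = 0.97) and then to the adaptor gene Crk (r = 0.97), Spred2 to Ppm1l (r = 0.94) and Mapk3 to Csrp1 (r = 0.98). Sos2, which encodes a Ras guanine nucleotide exchange factor, was the third closest to Spred2 (r = 0.91).

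The other genes of the pathway were followed in fixed lists. Of 18 further MAP kinase phosphatases and feedback inhibitors tested, 8 were called higher and 1 lower in microbead over saline nerves, with a median log2 difference of 0.41. Over all genes 9.39% were called higher and 3.06% lower in that comparison, 15.1% and 11.4% in aged over young nerves, and 6.07% and 4.78% in microbead over aged nerves, and the counts of every list are to be read against these shares. Dusp3, a phosphatase of Erk and Jnk, averaged 145 ± 15.1 CPM in microbead nerves, against 68 ± 6.12 CPM in saline nerves (log2 1.09, adjusted p = 1.09e-06), and the Erk phosphatase gene Dusp7 averaged 50.6 ± 2.75 CPM, against 31.1 ± 4.04 CPM (adjusted p = 8.08e-05). Spred3, the remaining Spred gene, rose by 1.43 on the log2 scale (adjusted p = 0.00366), at 4.78 ± 0.759 CPM against 1.79 ± 1.01 CPM. In aged over young nerves 9 of the 18 were called higher and 1 lower (median 0.55), and 6 and 0 with all 16 libraries. Dusp7 averaged 64.5 ± 6.04 CPM in aged nerves, against 26.5 ± 0.924 CPM in young ones (log2 1.28, adjusted p = 4.78e-08), and Cbl, a ubiquitin ligase of active receptors, 41 ± 10.7 CPM, against 14.3 ± 1.73 CPM (log2 1.51, adjusted p = 4.67e-07). In microbead over aged nerves 8 were called lower and 0 higher (7 and 1 with all 16 libraries), among them Cbl (log2 −1.19) and Il17rd, an inhibitor of FGF signaling (log2 −0.89, adjusted p = 0.000798).

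Of 30 genes of the cascade from adaptors to Erk and its kinases, 5 were called higher and 0 lower in microbead over saline nerves, and 9 higher and 1 lower in aged over young nerves (9 and 0 with all 16 libraries), with medians of 0.39 and 0.28. Set against 9.39% and 15.1% of all genes called higher, both higher counts stand above the share over all genes, with no test made of the difference. Mknk2, a kinase that Erk and p38 activate, averaged 75.1 ± 3.36 CPM in microbead nerves, against 33.2 ± 3.31 CPM in saline nerves (log2 1.18, adjusted p = 2.16e-06). In aged nerves it averaged 80.9 ± 13.2 CPM, against 26.6 ± 3.11 CPM in young ones (log2 1.60, adjusted p = 2.21e-08). Nras rose in both comparisons (log2 0.68 for microbeads and 0.98 for age). Of 12 Ras GTPase activators and other brakes, 2 were called higher for microbeads, and 2 higher and 2 lower for age, the age counts being near the shares over all genes. Nf1, which encodes the neurofibromin that Spred proteins recruit, averaged 38.5 ± 1.7 CPM in microbead nerves, against 19.5 ± 3.33 CPM in saline nerves (log2 0.98, adjusted p = 7.75e-05), and rose with age (log2 1.12). Pebp1, the Raf kinase inhibitor protein, fell with age (log2 −1.02, adjusted p = 1.91e-07).

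Upstream, 4 of 24 growth factor receptors were called higher and 0 lower in microbead over saline nerves, where 9.39% of all genes were higher. Fgfr1 averaged 419 ± 54.1 CPM in microbead nerves, against 222 ± 28.8 CPM in saline nerves (log2 0.91, adjusted p = 9.41e-06), and Igf1r 91.3 ± 7.15 CPM, against 45.5 ± 10.6 CPM (adjusted p = 3.36e-05). In aged over young nerves 9 were called higher and 1 lower, against 15.1% and 11.4% of all genes, and 5 higher and 3 lower with all 16 libraries, with Igf1r at 1.45 and the Bdnf receptor gene Ntrk2 at −0.63 on the log2 scale. Of 30 ligands, 0 were called higher and 4 lower for microbeads, against 9.39% and 3.06% of all genes. For age 5 were higher and 6 lower (4 and 5 with all 16 libraries), against 15.1% and 11.4%, so that the higher count was near the share over all genes. Hbegf, a ligand of the EGF receptor, averaged 94.3 ± 11.1 CPM in microbead nerves, against 143 ± 9.33 CPM in saline nerves (log2 −0.60, adjusted p = 0.000662), and fell with age as well (log2 −0.98).

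Downstream, 3 of 18 Erk transcription factors and Erk-induced genes were called higher and 0 lower for microbeads, against 9.39% and 3.06% of all genes, and 7 higher and 1 lower for age (4 and 1 with all 16 libraries), against 15.1% and 11.4%. Spred3 is a member of this list too. Emp1, which encodes an epithelial membrane protein, averaged 156 ± 22.9 CPM in microbead nerves, against 89.5 ± 16.4 CPM in saline nerves (log2 0.80, adjusted p = 0.000145). Elk1, a transcription factor that Erk phosphorylates, averaged 23.5 ± 2.92 CPM in microbead nerves, against 12.9 ± 2.08 CPM in saline nerves (log2 0.87, adjusted p = 0.000474), and rose with age (log2 1.27). Of 25 immediate early genes, 2 were called higher and 0 lower for microbeads, with a median of −0.02, and 4 higher and 1 lower for age (3 and 1 of 24 tested with all 16 libraries), with a median of 0.16, all near the shares over all genes or below them. In microbead over aged nerves 1 was called higher and 6 lower, with a median of −0.64, and with all 16 libraries 1 higher and 8 lower, against 6.07% higher and 4.78% lower over all genes with 14. Lower were Socs3 (log2 −0.72), Btg2 (log2 −1.01) and Klf6 (log2 −0.84), the last 2 being the genes closest to Dusp1 and Dusp5, and Gadd45b was higher (log2 1.08, adjusted p = 0.00326). Of 18 kinases of the p38 and Jnk cascades, 2 were called higher for microbeads, near the share over all genes, and 4 for age (2 with all 16 libraries), and none lower. No gene of any of these lists was called by edgeR in microbead over saline nerves with all 16 libraries, as it called none of all genes.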

How the data were processed

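Per the labels and the methods, the authors prepared unstranded SMARTer Ultra Low Input libraries, sequenced them on a HiSeq2500, aligned them to mm10 by STAR 2.3.0 and derived gene counts by featureCounts, whose version, like that of DESeq2 and of the annotation, is not given in the sources used here. Whole counts per gene and the summed exon length are in the deposited table. The authors' deposited comparison tables hold their own scaled values, p-values, averages, ratio and log2 ratio, and their library names alone were used. Without strand, reads of Dusp5 and Spry1 cannot be separated from those of a gene that overlaps each on the opposite strand in GENCODE vM21. In R 4.3.3, genes were filtered by filterByExpr, scaled by TMM and fitted in edgeR 4.0.16 (quasi-likelihood, robust, all 4 groups). Each library came from different mice. Log2 CPM for correlations used a prior count of 2, and genes compared for likeness had a mean count of at least 50. Genes of the lists were named from the 4 with the smallest p in a comparison, not all of which are printed, and Spred3 as a relative of the members. The members, lists and rules were chosen with earlier results of these data known. Alternatives were DESeq2 1.42.0, its size factors, no filter or a stricter one, a fit of the compared groups alone, calls without a fold minimum, all 16 libraries, a replicate block, main-set libraries of 1 title code, removal of the length trend (loess, span 0.5) and each library left out. The procedure was also run on simulated counts with set fold changes. These held no length trend and no library standing apart, so that run says nothing on either.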

Additional observations from a re-analysis of the deposited data

Results flagged for a closer look

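In groups of 4 libraries, 3 of 40 member and group combinations had a library farther from the other 3 than Dixon's 95% critical value allows, where chance flags about 1 in 20. Dusp1 was at 413 CPM in young naïve library 1, below the other young libraries. Dusp6 was at 78.8 CPM in microbead library 2, above the other microbead libraries. Mapk3 was at 158 CPM in aged library 2, below the other aged libraries.

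The responses to microbeads and to age differed by the test of the difference in 3 members. The difference of log2 fold changes, microbead response minus age response, was −0.76 for Dusp6, 0.91 for Spry2 and −0.85 for Spry4. For Spry2 and Spry4 this was lost with all 16 libraries. The microbead response was measured from saline nerves and the age response from young naïve nerves, which share no title code. Against young naïve nerves, Spry2 was at 0.41 in microbead, 0.47 in aged and −0.96 in saline nerves on the log2 scale.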

How the results depend on the processing

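No member's called change reversed its sign under any alternative. With all 16 libraries the number of members called was 0 in place of 4 in microbead over saline nerves, 2 in place of 4 in aged over young nerves and 1 in place of 3 for the difference between the responses. With no minimum fold change 2 members in place of 1 were called in microbead over young naïve nerves. In saline over young naïve nerves, where none was called, Spry2 was called with DESeq2 size factors, with no filter, with a stricter filter and with the length trend removed. The test of DESeq2 called 2, Spry2 and Spred2. Leaving out each library in turn gave 2 to 4 members in microbead over aged nerves and 0 to 1 in saline over young naïve nerves. Correlations of same-numbered deviations ran from −0.23 to 0.54. They were not set beside those of differently numbered libraries, so they do not settle whether the numbers pair libraries. By the paper, microbead and saline nerves were handled in parallel. With the replicate block 3 members were called in microbead over saline nerves, 4 in aged over young nerves and 3 for the difference. Mapk3 was the member lost against saline.

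Over all genes, 1810 calls in microbead over saline nerves became 0 with all 16 libraries, 4372 with no minimum fold change and 977 with the length trend removed. In aged over young nerves 3856 calls became 6196 with no minimum fold change. In microbead over young naïve nerves 1423 became 725 with all 16 libraries and 3842 with no minimum fold change, and in microbead over aged nerves 1578 became 3517 with no minimum fold change and 997 without aged library 4. The difference had 1568 calls, 573 with all 16 libraries, 1003 without young library 4, 866 without aged library 4 and 1030 without microbead library 4. Saline over young naïve nerves had 1 call and between 0 and 90 otherwise, with 90 without saline library 1 and 54 by DESeq2. Of the counts of called genes per list, 72 of 423 moved by more than 1.5 times under these settings, 22 of them with all 16 libraries, as did 38 of 324 with a library left out. Depth limits mainly Dusp5, with 25 to 102 counts per library. The causes of lost calls were not tested.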
